A study of Mus musculus with 42 samples.

Results

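The 6 libraries described here hold RNA of distal colon tumors from mice given azoxymethane (AOM) and dextran sodium sulfate (DSS). Of these, 3 tumors came from mice homozygous for the P209T allele of *Mtg16* (*Mtg16* T/T) and 3 from matched wild-type (WT) mice, out of 42 libraries in the whole study. They were chosen by their labels: each library of the tumor comparison was used and no measured value entered the choice. Both groups were C57/BL6 mice of at least 8 weeks from heterozygous breeding, and the WT mice were matched to the T/T mice by litter and cage. Both received 10 mg/kg AOM by intraperitoneal injection and then 3 cycles of 3% DSS in the drinking water, each with 4 days of DSS and 16 days of water. The allele was made by CRISPR editing and is carried in each cell of the mouse, not in the epithelium alone. Whole tumors were sequenced, so each library mixes epithelium with stroma and immune cells, and fewer cells of a type cannot be told apart from less RNA per cell. The labels do not say which mouse a tumor came from, and p-values therefore measure the spread between these tumors only.

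MTG16, encoded by *Cbfa2t3*, is a corepressor. It does not bind DNA itself but links transcription factors to histone deacetylases and to corepressors such as NCOR1. Among its partners are the E proteins, basic helix-loop-helix (bHLH) activators encoded by *Tcf3* (E2A), *Tcf12* (HEB) and *Tcf4*, which pair with lineage factors such as NEUROG3 and NEUROD1 on short DNA motifs called E boxes and drive secretory and enteroendocrine differentiation in the gut. The P209T change attenuates the binding of MTG16 to E2A and HEB. AOM is a carcinogen and DSS a polymer that injures the colonic epithelium, and together they give colon tumors that commonly carry activated WNT signaling.

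The proline that is changed is residue 209 of the 620-residue protein encoded by 1 *Cbfa2t3* transcript in GENCODE vM21. Other transcripts of the gene number their residues differently and hold no proline there. It lies in exon 5 of 12, at chr8:122642973-122642975 (GRCm38, minus strand). The wild-type reference sequence around it is shown so that the altered position can be seen, with the proline codon in capitals. Of its 63 coding bases the first 42 lie in exon 5 and the rest in exon 6.
Cbfa2t3 codon 209: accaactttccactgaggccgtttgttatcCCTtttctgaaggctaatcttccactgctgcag

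Each library held 32231389 to 62842728 reads assigned to genes, and Pearson correlations of log2 levels between the 6 tumors lay between 0.965 and 0.989. Values are normalized counts, that is, reads per gene divided by 1 size factor per library, and fold changes are differences of mean log2(normalized count + 1). The first principal component, with 45.6% of the variance, and the second, with 25.7%, did not separate the genotypes. The labelled tissue was checked against its markers: 24 of 26 WNT target and feedback genes were above distal crypts of untreated mice in each of the 6 tumors, as counts per total of recovered reads (CPM), in tables normalized separately, and the other 2 overlapped. *Axin2*, a feedback inhibitor of WNT signaling, was at 240.0 to 411 CPM in the tumors against 29.0 to 54.2 in the crypts, and *Notum*, another WNT inhibitor, was at 114 to 229 against 0.0258 to 0.103. Of 12 epithelial genes 8 were below the crypts in each tumor and 4 overlapped, among them *Epcam*. *Xist*, which is transcribed in female cells, was at 41870.1 normalized counts in T/T tumor 1 and 42808 in WT tumor 1 and between 54.6 and 2535 in the other 4, so that 1 tumor per genotype was *Xist*-high. The Y-linked *Uty* was at 134 and 51.9 in those 2 and at 955 to 1643 in the others.

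Single tumors stood apart in markers of other cells. Smooth muscle markers summed to 24710 to 43991 in the 5 other tumors and to 145320 in T/T tumor 2, and all 12 had a log2 fold change above 0 (median 0.77), of which 8 remained above 0 without that tumor (median 0.22). *Myh11*, smooth muscle myosin, was at 9400.4, 2928 and 5149 in WT and 7234, 33384 and 6719.5 in T/T tumors. Neutrophil markers summed to 77823 in T/T tumor 2 and 19594 to 39969 in the others. Squamous epithelium markers summed to 52102 in WT tumor 3 and 38685 in T/T tumor 2, against 4813.3 to 7955.3 in the other 4, with *Krt5* at 862, 16.7 and 12306 (WT) and 272, 11809 and 12.1 (T/T). B cell markers summed to 5626.6 in WT tumor 1 and 607.54 to 2757.7 in the others. The epithelial list had 11 of 12 members below 0 with a median of −0.12, and *Cdx2*, an intestinal identity factor, was lower without overlap, against 2.53% of all genes, at 919.5, 919 and 888 in WT and 635, 615 and 394 in T/T tumors (−0.76 ± 0.20). Their part in the gene values given here was not tested. When T/T tumor 2 and WT tumor 3 were left out together, limma called 0 genes in either direction.

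No gene passed the test between *Mtg16* T/T and WT tumors when the replicate spread was estimated with limma. Across 15900 genes whose normalized counts averaged 10 or more, limma called 0 higher and 0 lower in T/T tumors at an adjusted p under 0.05 (0%), and 392 (2.47%) had an unadjusted p under 0.05, 236 of them higher (1.48%) and 156 lower (0.981%). The smallest limma adjusted p was 0.1, for *Defa42*, and the next was 0.406. The edgeR quasi-likelihood test on whole reads recovered from the values also called 0 (0%), with 407 (2.56%) at an unadjusted p under 0.05. DESeq2 on the same reads called 24 genes (0.151%), 11 higher (0.0692%) and 13 lower (0.0818%), none of which edgeR called (edgeR adjusted p 0.454 to 1). DESeq2 gave 502 genes (3.16%) an unadjusted p under 0.05. A limma fit with weights for each library called 1083 genes higher and 842 lower, but its weights did not converge and it rested mostly on WT tumor 2 and T/T tumor 1, with weights of 5.97 and 6.53 against 0.246 to 0.723 in the others. In 474 genes (2.98%) all 3 T/T tumors were above all 3 WT tumors, and in 403 (2.53%) all were below, 877 in all (5.52%). The log2 fold change was above 0 in 49.5% and below 0 in 50.5% of all genes. For a single value, an exact permutation test of 3 against 3 cannot go below a two-sided p of 0.1.

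**Figure D1:**
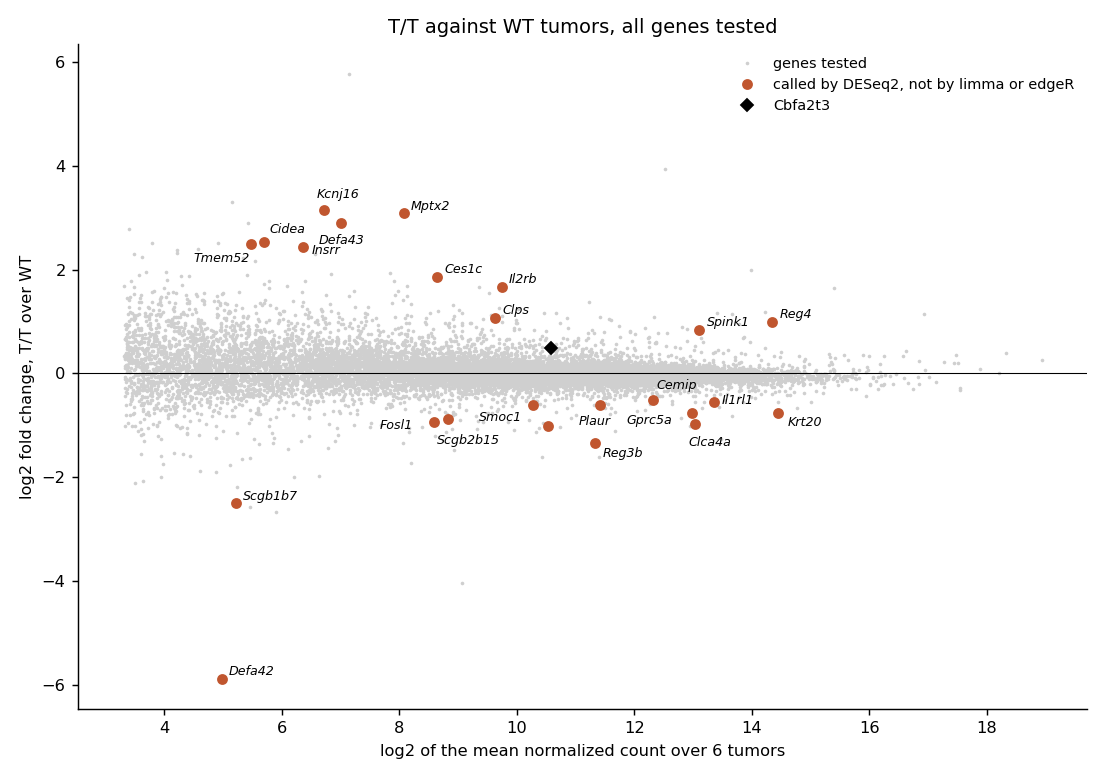
Log2 fold change of T/T over WT tumors (y axis, log2 units) against the log2 mean normalized count over the 6 tumors (x axis) for the 15900 genes tested. Orange points are the 24 genes that DESeq2 called and limma and edgeR did not, the black diamond is *Cbfa2t3*, and most genes lie close to 0 at high counts and spread more widely at low counts.

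Each of the 24 genes that DESeq2 called had all T/T tumors on one side of all WT tumors. With each tumor left out in turn, 14 of the 24 stayed called by DESeq2 in all 6 fits, 1 in 5 fits and 9 in 3 or fewer, and the count of calls itself moved, to 124 higher and 81 lower without WT tumor 1 and to 7 lower without WT tumor 2. Among the 14 are *Ces1c*, *Cidea*, *Clps*, *Defa43*, *Il2rb*, *Insrr*, *Mptx2*, *Reg4* and *Tmem52*, all higher, and *Clca4a*, *Defa42*, *Fosl1* and *Reg3b*, all lower.

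The mutated gene itself had higher values in T/T tumors. *Cbfa2t3* (chr8:122625141-122699109) was at 1475, 1115 and 1263 normalized counts in WT tumors 1 to 3 and at 1641, 1931 and 1825 in T/T tumors 1 to 3. All T/T tumors were above all WT tumors, with means of 1284 ± 181 and 1799 ± 147 (SD, n = 3 each) and a log2 fold change of 0.49 ± 0.13 (SE), which did not pass the limma test (adjusted p = 0.998) or DESeq2 (adjusted p = 0.365). The point mutation lies in the coding sequence, so the level of the transcript does not check the genotype of a library. Its relatives *Cbfa2t2* and *Runx1t1* were at 1646, 1672 and 1625 (WT) and 1653, 1528 and 1784 (T/T) and at 60.04, 38.7 and 34.1 (WT) and 59.9, 103 and 52.9 (T/T), with overlap of the groups. Of 14 genes of the MTG family and its corepressor partners, *Cbfa2t3* alone did not overlap between the genotypes, against 5.52% of all genes, and the median log2 fold change was 0.02. *Ncor1* was at 11469, 10373 and 10937 in WT and 11377, 10644 and 10629.5 in T/T tumors, and *Hdac3*, the deacetylase bound by these corepressors, at 3827, 3808 and 3950.3 (WT) and 3739, 3515 and 3961 (T/T).

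The E protein genes overlapped between the genotypes. *Tcf3* was at 6948, 7576 and 9214 in WT and 7352, 5944 and 8713 in T/T tumors, *Tcf12* at 7689.9, 8650.0 and 7279.7 (WT) and 7321, 7799 and 8793 (T/T), and *Tcf4* at 11452, 12536 and 9502 (WT) and 10510.3, 11396 and 12151 (T/T). The sign of the log2 fold change of each of the 3 turned when single tumors were left out. The Id proteins bind E proteins and keep them off DNA. *Id1* was at 10364, 13671 and 17717 in WT and 10507, 9389 and 11302 in T/T tumors, a log2 fold change of −0.39 ± 0.19 (SE), and WT tumor 3 had the highest value. *Id2*, *Id3* and *Id4* had log2 fold changes of −0.06, −0.34 and 0.43, also with overlap.

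Among the genes that DESeq2 called higher in the tumors were 2 that limma also called in T/T crypts. *Insrr* (chr3:87796951-87816101), a receptor tyrosine kinase of the insulin receptor family, was at 36.9, 17.6 and 23.3 in WT and 138, 119 and 159 in T/T tumors. The groups were far apart, the means were 25.9 ± 9.89 and 139 ± 20.2 (SD, n = 3 each) and the log2 fold change was 2.43 ± 0.34 (SE, DESeq2 adjusted p = 5.29e-06, limma adjusted p = 0.406). *Ces1c* (chr8:93099015-93131283), a secreted carboxylesterase of plasma, was at 144, 172 and 189 in WT and 436, 579 and 889.7 in T/T tumors, with a log2 fold change of 1.85 ± 0.27 (SE, DESeq2 adjusted p = 6.44e-07). WT values of *Ces1c* lay close together and T/T values spread more widely.

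The tumors were compared with T/T and WT distal crypts of untreated mice (4 T/T and 3 WT libraries, no AOM or DSS), which share no library with the tumors. The question was which of the crypt effects of the allele were also present in tumors. In these crypts limma called 5 genes higher in T/T (0.0369% of 13535) and 0 lower: *Insrr*, *Ces1c*, *Pamr1*, *Agt* and *Dmpk*. In the tumors 4 of the 5 had a log2 fold change above 0, against 49.5% of all genes, and 2, *Insrr* and *Ces1c*, were higher without overlap, against 2.98%. *Insrr* had a log2 fold change of 3.17 ± 0.19 (SE) in crypts and 2.43 in tumors, and *Ces1c* of 2.80 ± 0.26 and 1.85. *Agt*, which encodes angiotensinogen, was at 362, 761 and 593 in WT and 1089, 738 and 1614 in T/T tumors (log2 fold change 0.99 ± 0.34, 1.28 in crypts). *Pamr1*, a secreted protein with a peptidase domain, was at 342, 288 and 487 (WT) and 487, 706 and 519 (T/T) (log2 fold change 0.63 ± 0.24, 2.60 in crypts). *Dmpk*, the myotonic dystrophy protein kinase, was at 7751, 8695 and 11812 in WT and 7004, 7719 and 10199.8 in T/T tumors with overlap (log2 fold change −0.18 ± 0.19), against 1.24 ± 0.11 in crypts. The groups overlapped in the tumors for the last 3. The crypt calls themselves were sensitive to single libraries, with 0 genes called higher by limma without any 1 of the 3 WT crypt libraries or without T/T crypt library 4, and 1 without T/T crypt library 2 or 3.

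DESeq2 called 42 genes higher (0.31%) and 11 lower (0.0813%) in the same crypts. Of the 42, 41 were tested in tumors, where 35 had a log2 fold change above 0 and 6 below, 10 were higher without overlap and 0 lower without overlap, against 2.98% and 2.53% of all genes. Their median log2 fold change was 0.49 in tumors and 0.90 in crypts, and that of all genes in tumors was −0.0023. Among the 10 without overlap were *Insrr*, *Ces1c*, *Kcnh6*, *Pyy*, *Tff3*, *Insm1*, *Rprm*, *Cbfa2t3* and *Spon2*. *Tff3*, a trefoil peptide of goblet cell mucus, was at 13080.5, 7380.3 and 8689 in WT and 22552, 18806 and 14434 in T/T tumors (log2 fold change 0.96 ± 0.24, 0.92 in crypts). Of the 11 genes lower in T/T crypts, 6 were below 0 and 5 above in tumors, 3 were lower and 1 higher without overlap, and the median was −0.0097 in tumors and −1.96 in crypts. The genes of both lists, like those limma called, were picked by their crypt values. The size of their crypt effects therefore follows in part from the choice. Over all 13402 genes tested in both, whether called or not, the log2 fold changes in tumors and crypts had a Pearson correlation of 0.0122 and a Spearman correlation of −0.209, across genes, which are not independent replicates. *Reg3b*, an antimicrobial lectin, was at 2893, 3597 and 4589.8 (WT) and 2026, 1126 and 1299 (T/T) (log2 fold change −1.34 ± 0.24). *Dlk1*, a Notch-related membrane protein, was at 579, 420.0 and 324 (WT) and 210.1, 176 and 58.9 (T/T) (−1.72 ± 0.47), and *Cma1*, the mast cell chymase, at 511, 422 and 393 (WT) and 347, 357 and 146 (T/T) (−0.74 ± 0.35).

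**Figure D2:**
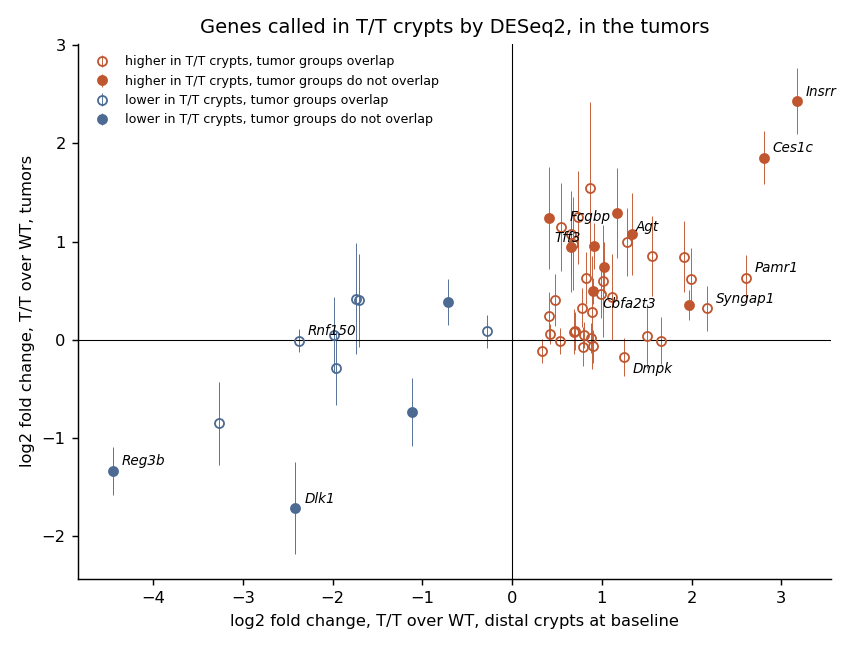
Log2 fold change of T/T over WT in tumors (y axis, bars are 1 SE) against that in distal crypts of untreated mice (x axis), in log2 units, for genes that DESeq2 called higher (orange, 41 genes) or lower (blue, 11 genes) in the crypts. Filled points are genes whose tumor groups did not overlap, and 35 of the 41 orange points lie above 0.

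The size of the allele's effect was then compared between tumors and crypts gene by gene. Of 13402 genes tested in both, 0 differed (0%) between tumors and untreated crypts at an adjusted p under 0.05, and 593 (4.42%) did at an unadjusted p under 0.05 in this test on the limma fits. *Dmpk* and *Pamr1* came closest, with tumor minus crypt effects of −1.42 and −1.97 on the log2 scale (adjusted p = 0.165 each). For *Insrr* the difference of tumor minus crypt effect was −0.74 (unadjusted 95% interval −1.57 to 0.08) and for *Ces1c* −0.95 (−1.75 to −0.15). *Cbfa2t3* itself had a log2 fold change of 0.90 ± 0.13 in untreated crypts and 0.49 in tumors. Crypts are isolated epithelium and the tumors whole tissue, the treatment differed and the libraries were made under separate sequencing requests, which cannot be told apart.

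Enteroendocrine genes mostly had higher values in T/T tumors, and none passed the limma test. Of 17 enteroendocrine transcription factors tested, 13 had a log2 fold change above 0, 6 were higher in T/T without overlap (35.3%, against 2.98% of all genes) and 0 lower (2.53%), and the median was 0.83. Mean log2 levels over all 20 listed factors were 6.16, 5.54 and 6.09 in WT and 6.55, 6.81 and 6.48 in T/T tumors. The T/T tumors were thus above the WT tumors, with 3 factors included that averaged under 10 and were not tested. *Neurod1*, a bHLH partner of E proteins that acts after *Neurog3*, was at 50.6, 10.6 and 34.1 in WT and 59.9, 104 and 53.6 in T/T tumors, with a log2 fold change of 1.35 ± 0.58 (SE) and a narrow gap between the highest WT and the lowest T/T tumor. *Fev*, a factor of serotonin-producing cells, was at 22.1, 8.80 and 10.9 (WT) and 30.4, 37.4 and 27.9 (T/T) (1.23 ± 0.43), and *Myt1* at 37.9, 14.97 and 31.0 (WT) and 42.3, 70.3 and 58.9 (T/T) (1.07 ± 0.42). *Insm1* and *St18* were also without overlap. *Neurog3*, which starts the lineage, was at only 13.7, 3.52 and 12.4 (WT) and 10.4, 15.9 and 15.1 (T/T), and its groups overlapped.

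Of 28 genes of enteroendocrine hormones and secretory granules tested, 27 were above 0, 7 were higher without overlap (25%, against 2.98% of all genes), and the median was 0.93. Mean log2 levels over the 29 genes of this list with values, 1 of them averaging under 10 and not tested, overlapped between the genotypes. They were 6.85, 5.47 and 6.34 in WT and 6.76, 7.55 and 6.78 in T/T tumors. *Pcsk1n*, an inhibitor of the prohormone convertase PC1, was at 75.8, 28.2 and 71.4 in WT and 133, 211 and 128 in T/T tumors (log2 fold change 1.502 ± 0.42). *Chgb*, a core protein of secretory granules, was at 2238, 604 and 1425 (WT) and 3155, 4677 and 2318 (T/T) (1.38 ± 0.46), *Scg2* at 129.6, 54.6 and 79.2 (WT) and 163, 328 and 155 (T/T) (1.28 ± 0.41) and *Pyy*, peptide YY, at 1131, 229.8 and 747 (WT) and 1161, 1692 and 1311 (T/T) (1.24 ± 0.52). In each of these WT tumor 2 was lowest and T/T tumor 2 highest. Many hormone genes of the list were high in WT tumor 1 as well, such as *Gcg*, which encodes proglucagon, at 479, 31.7 and 141 in WT and 332, 609 and 179.8 in T/T tumors, and *Insl5* at 495, 29.1 and 107 (WT) and 369, 501 and 193 (T/T). Only *Iapp* was below 0. The median of the transcription factors was 0.41 without WT tumor 2 and 0.49 without T/T tumor 2, and that of the hormone list 0.40 and 0.58. T/T tumor 2 also had the highest mean level of smooth muscle and enteric neuron markers. Of 12 enteric neuron markers tested, 8 were above 0 with a median of 0.88, similar in size to the enteroendocrine medians, and *Elavl3* and *Elavl4* were higher and *Ret* lower without overlap. Over all 14 neuron markers, 2 of them averaging under 10 and not tested, the mean log2 level was 6.95 in T/T tumor 2. It was 5.27 and 5.28 in T/T tumors 1 and 3 against 4.62 to 5.71 in WT tumors. The part of these cells in the enteroendocrine values was not tested. The enteroendocrine signature used by the study, 142 genes tested, had 100 above 0, 21 higher without overlap (14.8%, against 2.98% of all genes) and 0 lower, and a median of 0.22 that was 0.09 without T/T tumor 2. That signature and the other lists were chosen with results of these data known.

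**Figure D3:**
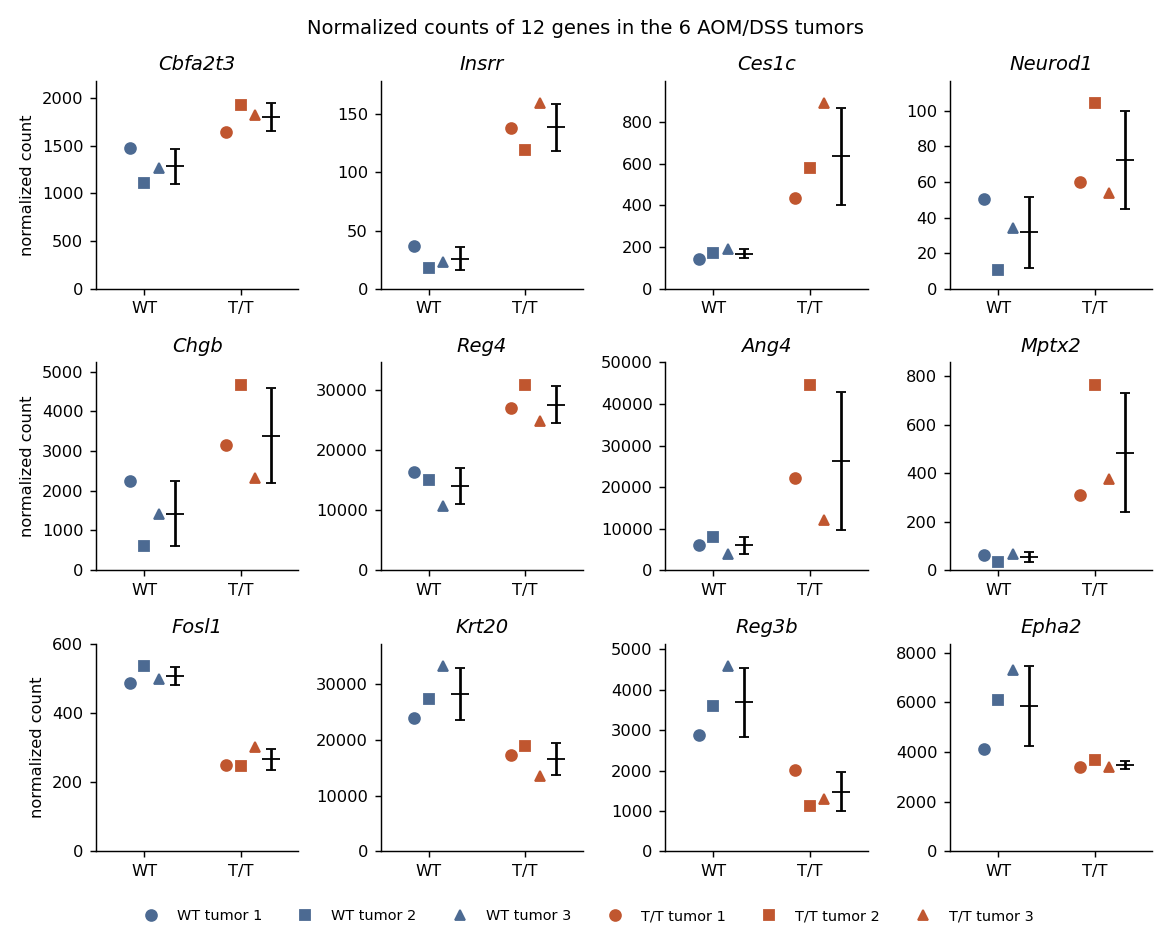
Normalized counts (y axis, linear, from 0) of 12 genes in the 3 WT (blue) and 3 T/T (orange) tumors, with symbols for tumors 1 to 3 and the group mean ± SD as the black cross and bar. In each panel the groups do not overlap; the bottom row holds genes lower in T/T tumors and the others genes that were higher.

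Goblet cell genes overlapped between the genotypes in 17 of 22 cases. Of the 22 tested, 15 were above 0 and 7 below, 4 were higher and 1 lower without overlap, against 2.98% and 2.53% of all genes, and the median was 0.40, which was 0.09 without WT tumor 2. The goblet signature used by the study, 386 genes tested, was balanced, with 191 above and 195 below 0, 8 higher and 10 lower without overlap and a median of −0.00042. *Reg4* (chr3:98222156-98236748), a secreted lectin of goblet and enteroendocrine cells, was at 16355, 15083 and 10693 in WT and 27001, 30911 and 24818 in T/T tumors. Each T/T tumor was well above each WT tumor (log2 fold change 0.99 ± 0.17, DESeq2 adjusted p = 0.000116, means 14044 ± 2971 and 27577 ± 3087, SD, n = 3 each). *Ang4*, an antimicrobial ribonuclease, was at 6155, 7985 and 3925 (WT) and 22138, 44671 and 12035 (T/T) (1.98 ± 0.46), T/T tumor 2 being highest. *Fcgbp*, a mucus protein, was at 129724, 47649.7 and 58669 (WT) and 170561, 244977 and 94674 (T/T), and *Clca1*, a secreted mucus protease, at 41336, 8538 and 12389.5 (WT) and 49245, 123904 and 22141 (T/T), both with overlap. *B3gnt6*, which builds core 3 mucin glycans, was lower at 51.6, 45.8 and 40.4 (WT) and 38.4, 26.1 and 34.7 (T/T). *Clps* (colipase, a cofactor of pancreatic lipase) and *Spink1* (a trypsin inhibitor) are secreted proteins that DESeq2 also called higher. *Clps* was at 414, 612 and 520.0 in WT and 978, 1092 and 1133 in T/T tumors (log2 fold change 1.06 ± 0.17, DESeq2 adjusted p = 3.83e-05). *Spink1* was at 7593, 6813 and 4677 (WT) and 13119.9, 11533 and 9244 (T/T) (0.84 ± 0.20), and called in 2 of the 6 fits that left out a tumor.

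Among the tuft cell genes 10 of 12 were above 0 with a median of 0.30, and 0 was without overlap. The study's tuft signature, 441 genes tested, had 210 above and 231 below 0, 23 higher and 8 lower without overlap, against 2.98% and 2.53% of all genes, and a median of −0.0071. *Kcnj16*, a potassium channel of that signature, was at 40.0, 9.69 and 10.9 in WT and 152, 355 and 64.95 in T/T tumors (log2 fold change 3.14 ± 0.72, DESeq2 adjusted p = 0.00565), and it was called in 2 of the 6 fits that left out a tumor. Of 22 absorptive colonocyte genes, 13 were above 0 and 9 below, with a median of 0.04. *Krt20*, a keratin of mature surface cells, was the 1 gene of that list without overlap, against 5.52% of all genes, at 23950.2, 27359 and 33209 in WT and 17263, 18914 and 13438 in T/T tumors (log2 fold change −0.77 ± 0.17, DESeq2 adjusted p = 0.0146, called in 2 of 6 such fits).

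DESeq2 also called *Mptx2* and 2 alpha-defensins, genes of antimicrobial defence best known from Paneth cells of the small intestine. *Mptx2*, a pentraxin of Paneth cells (chr1:173274382-173277777), was at 64.2, 31.7 and 68.3 in WT and 312, 766 and 375 in T/T tumors. Its lowest T/T tumor was far above its highest WT tumor (log2 fold change 3.08 ± 0.42, DESeq2 adjusted p = 1.95e-09). Its relative *Mptx1* was at 3023, 140.0 and 172 (WT) and 7626, 22929 and 1527 (T/T), with overlap, and T/T tumor 2 was highest for both. *Lyz1*, the Paneth cell lysozyme, overlapped at 24295, 73343 and 43793 (WT) and 62633, 29935 and 70264 (T/T). The 25 alpha-defensins, grouped after their values were seen, summed to 7238.1, 24299.0 and 20373.9 in WT and 25253.8, 30141.5 and 33260.1 in T/T tumors. Of the 20 tested, 19 were above 0, 9 were higher without overlap and 1, *Defa42*, was lower without overlap, against 2.98% and 2.53% of all genes, but members of this family share closely similar sequences, and reads may be split among them.

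*Defa42* and *Defa43* were called in opposite directions by DESeq2, but nearly all of their sequence is shared. *Defa42* (chr8:21455445-21456560) was at 32.7, 95.1 and 62.1 in WT tumors and at 0 in all 3 T/T tumors, at least 23.5-fold lower when set against a floor of 3 reads in each T/T library. *Defa43* (chr8:21593375-21594508) was at 13.7, 26.4 and 60.5 in WT and 250.1, 154 and 267 in T/T tumors (log2 fold change 2.91 ± 0.52). Their coding sequences of 348 bases are identical (100%), so a read within them matches both genes. All 488 bases of the *Defa42* transcript matched bases of the 506-base *Defa43* transcript in an alignment. *Defa43* thus holds bases that *Defa42* lacks, and where these lie was not examined. The start of the coding sequence they share, bases 1 to 60, is shown for that reason.
Defa42 and Defa43: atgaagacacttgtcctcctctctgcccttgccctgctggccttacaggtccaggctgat
Summed, the pair was at 46.3, 121.5 and 122.6 in WT and 250.1, 154.1 and 266.6 in T/T tumors, a ratio of means of 2.31 with no overlap. Both lie on chromosome 8, as do *Ces1c* and *Cbfa2t3*. Chromosome 8 held 5.29% of the genes tested, 12.5% of the 24 that DESeq2 called and 6.5% of the 877 without overlap.

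The other 3 genes that DESeq2 called higher are not lineage markers in the lists above, apart from *Cidea*, which is in the study's enteroendocrine signature. *Il2rb*, a shared receptor chain for interleukins 2 and 15 on T and NK cells, was at 522, 386 and 309 in WT and 1096, 1837 and 989 in T/T tumors (log2 fold change 1.66 ± 0.28, DESeq2 adjusted p = 1.56e-05). Of 17 T cell and NK cell markers tested, 15 were above 0 and the median was 0.24, and summed levels were 2143.6 to 3161.9 in WT and 2380.6 to 4006.7 in T/T tumors. *Cd3e* was at 116, 117 and 66.7 (WT) and 139, 198 and 86.9 (T/T). *Cidea*, a lipid droplet protein, was at 12.6, 10.6 and 21.7 (WT) and 89.5, 108 and 68.7 (T/T) (2.53 ± 0.38, DESeq2 adjusted p = 0.000116), and *Tmem52*, a membrane protein, at 13.7, 12.3 and 10.9 (WT) and 61.5, 112 and 57.4 (T/T) (2.49 ± 0.37, DESeq2 adjusted p = 0.000622).

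The 13 genes that DESeq2 called lower in T/T tumors have diverse roles. *Fosl1*, the AP-1 factor FRA1 and a target of ERK signaling, was at 487, 536 and 499.8 in WT and 249, 247 and 301 in T/T tumors, with values close together in each group (log2 fold change −0.93 ± 0.16, DESeq2 adjusted p = 0.000116). *Plaur*, the urokinase receptor, was at 2807, 3854 and 3297 (WT) and 2116, 2119.5 and 2199 (T/T) (−0.62 ± 0.13, DESeq2 adjusted p = 0.0146), and called in 1 of the 6 fits that left out a tumor. *Il1rl1*, the receptor of interleukin 33, was at 11638, 13954 and 11842 (WT) and 8987, 8392 and 8185 (T/T) (−0.55 ± 0.10, DESeq2 adjusted p = 0.00255), and called in 3 of these 6 fits. *Clca4a*, a calcium-activated chloride channel regulator, was at 12177, 9636 and 11618 (WT) and 5496, 6686 and 4907 (T/T) (−0.97 ± 0.14, DESeq2 adjusted p = 6.46e-06). *Reg3b*, given above with the crypts, had a DESeq2 adjusted p of 0.000296.

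Among the remaining genes, *Smoc1*, which encodes a matrix protein that modulates BMP signaling, was at 1432, 1477 and 1594 in WT and 952, 958 and 1052 in T/T tumors. *Cemip*, which degrades hyaluronan, was at 6183, 6444 and 5352 (WT) and 3799, 4213 and 4543 (T/T), and *Gprc5a*, an orphan receptor induced by retinoic acid, at 8492, 9237 and 12776 (WT) and 5307, 6744 and 5785 (T/T). The 2 secretoglobins were *Scgb2b15*, at 538, 608 and 616 (WT) and 399.5, 259.6 and 316 (T/T), and *Scgb1b7*, at 83.2, 48.4 and 60.5 (WT) and 15.2, 11.3 and 6.04 (T/T). The log2 fold changes of these 5 ran from −2.50 (*Scgb1b7*) to −0.52 (*Cemip*). *Smoc1* was called in 5 of the 6 fits that left out a tumor, *Gprc5a* and *Scgb1b7* in 3 and *Cemip* and *Scgb2b15* in 2.

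The list of EGF family ligands, receptors and ERK feedback genes mostly had lower values in T/T tumors. Of 25 tested, 22 were below 0, 5 were lower without overlap (20%) against 2.53% of all genes, 0 was higher without overlap, and the median was −0.26. Its mean log2 level was 10.4, 10.6 and 10.6 in WT and 10.3, 10.2 and 10.3 in T/T tumors, with no overlap, and the median stayed between −0.29 and −0.19 with each tumor left out. *Epha2*, an ephrin receptor induced by ERK, was at 4135, 6112 and 7319 in WT and 3386, 3663 and 3384 in T/T tumors (log2 fold change −0.71 ± 0.19). *Nrg1*, a ligand of ERBB3 and ERBB4, was at 2247, 1791 and 2068 (WT) and 1396, 1268 and 1767 (T/T) (−0.47 ± 0.15). *Dusp4*, a phosphatase that acts on ERK, was at 4069.8, 5023 and 5454 (WT) and 3399.8, 3397 and 3950.0 (T/T) (−0.43 ± 0.13), and *Egfr* at 4114, 4514 and 4326 (WT) and 3411, 3664 and 3771 (T/T) (−0.26 ± 0.09). The ligands *Areg* and *Hbegf* overlapped, at 1231, 1715 and 1675 (WT) and 1276, 1315 and 954 (T/T) and at 1317, 2146 and 4303 (WT) and 1381, 1430.4 and 1022 (T/T). None of these passed limma, and *Fosl1* alone among the 25 was called by DESeq2.

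All 16 immediate early genes had a log2 fold change below 0, with a median of −0.48, but 1 tumor carried much of it. WT tumor 3 was the highest tumor for most of them, though not for *Jun*, *Egr3*, *Ier3* or *Btg2*, with *Fosb* at 5752 there and 227 to 865 in the other 5, and without it 13 of the 16 were below 0 and the median was −0.21. *Egr1* was at 2041, 3210.3 and 8899 in WT and 1954, 1860.0 and 1598 in T/T tumors, and *Ier3* at 5416, 6768 and 6376 (WT) and 4763, 3769 and 4417 (T/T) (−0.52 ± 0.13), the 2 of 16 members that were lower without overlap, against 2.53% of all genes. The same tumor was high in squamous epithelium markers.

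Canonical WNT targets lay slightly below 0 as a list, and nearly all overlapped. Of 27 tested, 26 were below 0 with a median of −0.21, and 1 of the 27 was lower without overlap, near the 2.53% of all genes. That gene was *Cd44*, a hyaluronan receptor, at 9512, 9424 and 9692 in WT and 7847, 8619.8 and 8877 in T/T tumors. *Axin2* was at 13447, 19223 and 18952 (WT) and 13845, 11655 and 19489 (T/T), *Nkd1* at 18051, 25661 and 22381 (WT) and 16062, 16175 and 24829 (T/T) and *Notum* at 7508, 10346 and 10079.9 (WT) and 6391, 5541 and 10888 (T/T), all with overlap, T/T tumor 3 being highest in the T/T group. Without T/T tumor 2 the median was −0.05 and 20 of 27 were below 0. Of the WNT receptors, 8 Frizzled genes other than *Fzd9* and *Fzd10* had log2 fold changes of −0.13 (*Fzd5*) to 0.35 (*Fzd3*), all with overlap, and those of *Fzd5*, *Fzd6* and *Fzd7* changed sign when single tumors were left out. Of 17 genes in the list of Frizzled receptors and coreceptors, 10 were above 0 and 7 below, with a median of 0.07. Only *Fzd9* and *Ror1*, 2 of the 17, were higher without overlap, against 2.98% of all genes. The mean log2 level of the list was 10.095 to 10.199 in WT and 10.218 to 10.344 in T/T tumors, without overlap. Its summed counts overlapped, at 39886 to 44782 in WT and 39490 to 42514 in T/T tumors. *Fzd9* (chr5:135248938-135251230) was at 48.5, 59.0 and 49.7 in WT and 95.1, 126 and 131 in T/T tumors, with no overlap, means of 52.4 ± 5.77 and 117 ± 19.3 (SD, n = 3 each) and a log2 fold change of 1.14 ± 0.25 (limma adjusted p = 0.998, DESeq2 adjusted p = 0.145). In untreated crypts its log2 fold change was 1.28 ± 0.34. *Ror1*, a coreceptor for WNT5A, was at 402, 423 and 298 (WT) and 445, 632 and 532 (T/T) (0.52 ± 0.20). *Fzd10* spread widely, at 169.6, 698 and 388 (WT) and 272, 236 and 389.7 (T/T).

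Stem cell, Notch and p53 lists were balanced. Of 16 stem cell genes 7 were above and 9 below 0, *Lgr5*, the receptor that marks crypt base stem cells, was at 4912, 7461 and 4984 in WT and 5262, 3429 and 7243 in T/T tumors, and *Prom1*, a membrane protein of progenitors, was higher without overlap, against 2.98% of all genes, at 10245, 10606 and 11368 (WT) and 13750.3, 11462 and 12562 (T/T) (0.23 ± 0.10). Of 19 Notch pathway genes 9 were above and 10 below 0, with 0 without overlap, and *Dll3*, a Notch ligand, was at 56.9, 44.0 and 69.8 (WT) and 66.3, 101 and 155 (T/T). Of 23 p53 target and apoptosis genes 11 were above and 12 below 0. *Cdkn1a*, the cell cycle inhibitor p21, was at 8019.6, 9502 and 9122 (WT) and 7017, 8054 and 7180.2 (T/T). Of 19 genes of fetal-like and revival programs 15 were below 0 with a median of −0.22 and 0 without overlap. Of 30 inflammatory cytokine and chemokine genes 18 were below 0 with 0 without overlap.

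Cell cycle genes depended on T/T tumor 2. Of 28 mitosis genes 27 were below 0 (median −0.15), and of 28 S phase genes 26 (median −0.13). Without T/T tumor 2 the medians were 0.03 in both lists. *Anln*, a cytokinesis protein, was the 1 gene lower without overlap, against 2.53% of all genes, at 3452, 2907 and 3076 in WT and 2861, 2059 and 2878 in T/T tumors. *Mki67* was at 22042, 18657 and 21153 (WT) and 23000.5, 15259.5 and 20057 (T/T).

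**Figure D4:**
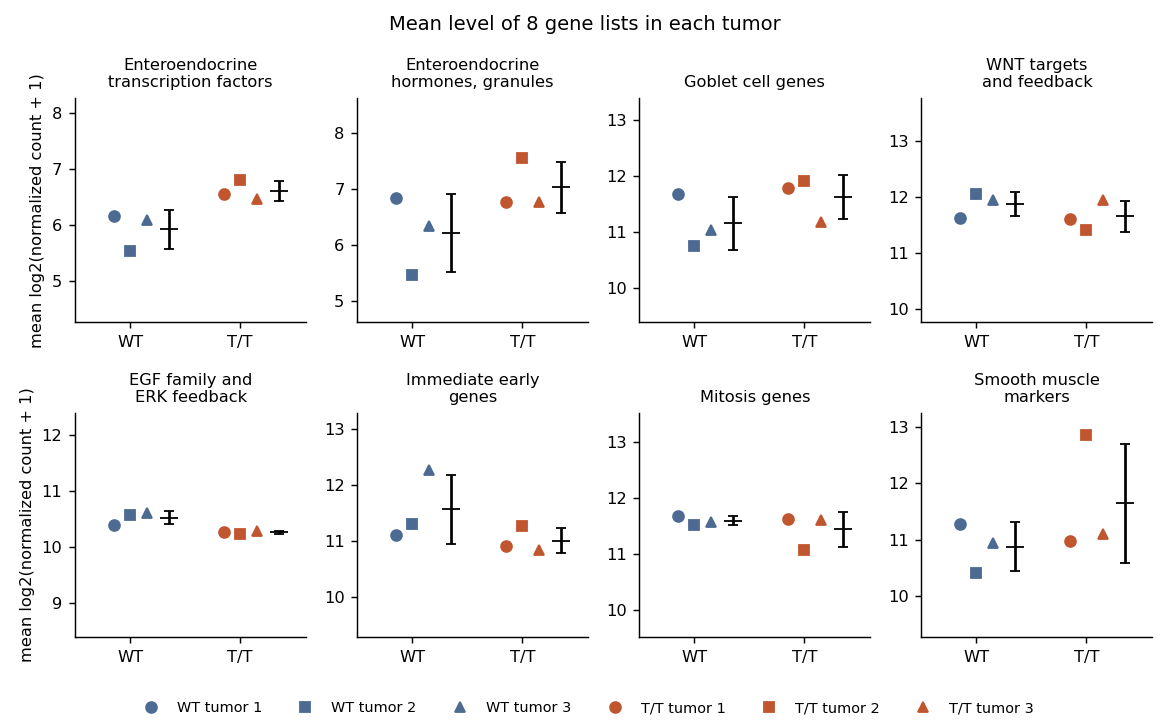
Mean log2(normalized count + 1) over the members of 8 gene lists (y axis, log2 units, a span of 4 units in each panel) in each WT (blue) and T/T (orange) tumor, with the group mean ± SD as the black cross and bar. The T/T tumors lie above the WT tumors for enteroendocrine transcription factors and below them for the EGF and ERK list, and T/T tumor 2 stands apart for smooth muscle and mitosis genes.

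The allele's effect in tumors was also compared with that in distal crypts taken during recovery from DSS (3 T/T and 3 WT libraries, 2% DSS for 5 days and 4 days of recovery, no AOM). The comparison asked whether the allele acts alike in regenerating epithelium and in tumors. Of 13509 genes tested in both, 62 differed in effect (0.459%) at an adjusted p under 0.05 on the limma fits, 34 with a higher (0.252%) and 28 with a lower (0.207%) effect in tumors. The effect was larger in crypts than in tumors in 60 of the 62 and of opposite sign in 54, with a median size of 0.44 in tumors and 1.71 in crypts on the log2 scale. Since these genes were picked for a difference of effects, opposite signs and unequal sizes among them follow in part from the choice. Over all 13509 genes the Pearson correlation of the effects was 0.0411 and the Spearman correlation 0.151, across genes. The crypts on their own gave 0 limma calls in either direction, while DESeq2 called 156 genes higher (1.14%) and 178 lower (1.3%) there. A single fit of both experiments with an interaction term called 15 genes, all among the 62, and 10 of the 62 were called with each library of either experiment left out in turn. The counts without 1 library ran from 4 (without WT crypt library 2) to 89 (without WT tumor 1) for higher and from 7 (without T/T crypt library 1) to 55 (without WT tumor 1) for lower effects.

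The 62 are described by the genes with the firmest differences. *Tgm2*, tissue transglutaminase, was at 16287, 14599.5 and 15997 in WT and 13683, 15935 and 11832 in T/T tumors but at 1860.4, 1843 and 2386 in WT and 9273, 6988 and 8750.1 in T/T crypts after DSS, a difference of effects of −2.22 ± 0.23 (SE, log2). *Sema7a*, a membrane semaphorin, was at 5184, 5148 and 4363 (WT) and 3742, 3503 and 3815 (T/T) in tumors and 186, 167 and 177 (WT) and 748, 522 and 509 (T/T) in crypts (−2.13 ± 0.26), and *Trim15*, a ubiquitin ligase, at 3644, 3334 and 3756 (WT) and 2065, 3106 and 2106 (T/T) and at 1407, 1031 and 1474 (WT) and 3520.5, 3505 and 3805 (T/T) (−2.07 ± 0.25). *Bmp8b*, a BMP ligand, and *Ret*, a receptor tyrosine kinase, had the same pattern, with differences of −2.97 and −2.04. In all 5 the T/T tumors had lower means and the T/T crypts higher ones. *Epha2*, *Plaur*, *Areg* and *Reg3b* were among the 62 with the same signs, with differences of −1.64, −1.77, −1.38 and −3.51.

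The opposite pattern was seen for *Ctse*, the protease cathepsin E, at 3509, 3108 and 3241 in WT and 4243, 4209.6 and 4198 in T/T tumors and 8491, 7487 and 7451 (WT) and 2999, 4268 and 3546 (T/T) in crypts after DSS (1.49 ± 0.20). *Dio1*, a thyroid hormone deiodinase, was at 546, 402 and 314 (WT) and 622, 541 and 653 (T/T) in tumors and 2323, 2069.7 and 2275 (WT) and 624, 976 and 703 (T/T) in crypts (2.11 ± 0.31). *S100g*, a calcium-binding protein of absorptive cells, was at 98.0, 76.6 and 48.1 (WT) and 152, 164 and 90.6 (T/T) and at 324, 545 and 598 (WT) and 36.5, 94.4 and 47.5 (T/T) (3.96 ± 0.56), and *Adora1*, an adenosine receptor, differed by 3.85 ± 0.59. *Clps*, *Tmem52* and *Reg4*, called higher in T/T tumors by DESeq2, were also among the 62, with log2 fold changes of −1.24, −0.99 and −0.33 in the crypts. *Mptx1* had the widest difference, 8.18 ± 1.496, with 19139, 15972 and 25315 in WT and 512, 3522 and 632 in T/T crypts. *Insrr* and *Ces1c* did not differ by this test: their log2 fold changes in crypts after DSS were 1.76 and 1.76, with 95% intervals of the difference of −0.48 to 1.83 and −1.14 to 1.34.

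**Figure D5:**
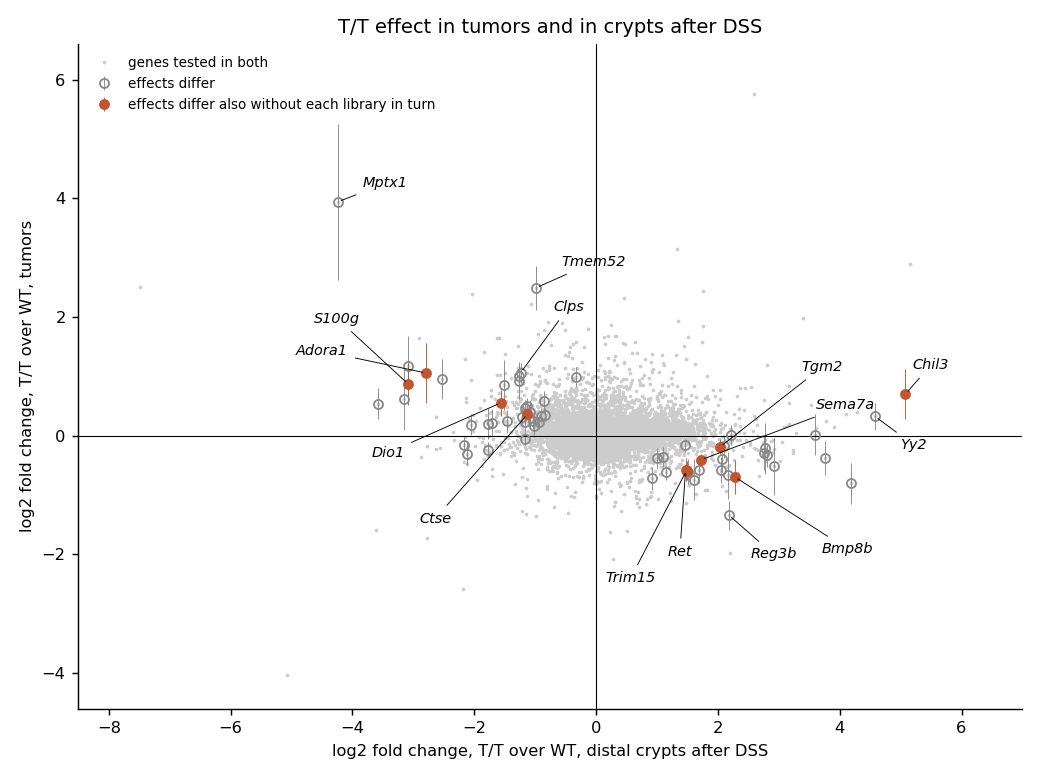
Log2 fold change of T/T over WT in tumors (y axis, bars are 1 SE) against that in distal crypts after DSS (x axis), in log2 units, for 13509 genes. Open circles are the 52 genes whose effects differed and filled circles the 10 that differed also with each library left out in turn, most of them far from 0 along the x axis and close to 0 along the y axis.

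For the genes that DESeq2 called, promoters were read from RefSeq (GRCm38.p6), 250 bases before the start site. They were searched for the E boxes that E proteins bind on both strands: the motif CAGCTG, which is its own reverse complement, and the motif CACCTG with its reverse complement CAGGTG. Alone they were in 13.0%, 8.8% and 9.4% of promoters. The search covered 12 of the 24 genes, with 16 start sites, and the other genes were not searched. Of the 16 start sites 7 held at least 1 such E box, against 27.7% of 32851 promoters of the same length. The 12 genes and the 32851 promoters may not have been selected alike, and whether these shares differ was not tested. The promoters of *Defa42* and *Defa43*, both among the 7, are identical in these 250 bases. Promoters of *Ces1c*, with none, and *Reg4*, with 1, are printed for the genes higher in T/T tumors without overlap, with E boxes in capitals. The first lies at chr8:93131284-93131533 on the minus strand and the second at chr3:98221906-98222155 on the plus strand.
Ces1c: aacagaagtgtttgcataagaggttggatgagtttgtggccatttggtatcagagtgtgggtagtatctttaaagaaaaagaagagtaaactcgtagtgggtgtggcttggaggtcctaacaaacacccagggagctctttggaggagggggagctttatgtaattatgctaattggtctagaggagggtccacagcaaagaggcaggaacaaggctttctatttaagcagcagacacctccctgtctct
Reg4: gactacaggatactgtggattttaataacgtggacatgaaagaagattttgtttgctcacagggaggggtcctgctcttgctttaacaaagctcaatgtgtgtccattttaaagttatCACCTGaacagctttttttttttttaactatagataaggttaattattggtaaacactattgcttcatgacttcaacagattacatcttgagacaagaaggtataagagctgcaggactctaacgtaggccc
Among other promoters shown by the search, *Reg3b* held 1 CACCTG and 1 start site of *Cbfa2t3* held 2 CAGCTG. The match of 6 letters is a description of the sequence and not evidence of binding.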

How the data were processed

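RNA of 6 AOM/DSS tumors was sequenced as paired-end poly(A) libraries. Per the labels and methods, the authors trimmed reads with fastp 0.20.0, quantified them with Salmon 1.3.0 against GENCODE vM21, summed them to genes, dropped genes with almost no reads and deposited DESeq2 1.26.0 (R 3.6.3) normalized counts, a read signal divided by 1 size factor per library. Their columns of fold changes and p-values were not used. Whole reads were recovered from the deposited signal (tolerance 0.02), giving 32231389 to 62842728 reads per library.

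In R 4.3.3, log2(normalized count + 1) of genes with a mean of at least 10 was tested with limma 3.58.1 (trend) and Benjamini-Hochberg adjustment over all genes. Alternatives were edgeR 4.0.16 or DESeq2 1.42.0 run on those whole reads, other pseudocounts, filters and scalings, and fits without each library. Differences between experiments were tested on the estimates and standard errors of separate limma fits, by t with the summed degrees of freedom of both. That sum is an upper limit where the standard errors are unequal, so these p-values may be too small. Replicate numbers did not pair the tumors. Methods were tested on simulated data.

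Members and lists were chosen with earlier results of these data known. Genes were named if called, if they belonged to the MTG16, E protein, Id or Frizzled families, or if they led a list by fold change without overlap or by level, together with the leading genes of the crypt and difference tests. Since limma called none in tumors, the DESeq2 genes, the alpha-defensins, *Lyz1*, *Mptx1*, *Dlk1*, *Gcg*, *Insl5*, *Neurog3* and further single list members were named after their values were seen. A few genes that these rules name are not reported here. Promoters came from RefSeq (GRCm38.p6) and positions from GENCODE vM21 (GRCm38). Sets with 3 libraries a group limit precision.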

Additional observations from a re-analysis of the deposited data

Results flagged for a closer look

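The effect of the *Mtg16* P209T allele differed between tumors and distal crypts after DSS in 62.0 genes, by the test of the difference on the limma fits (adjusted p under 0.05). The 10 called with each library of either experiment left out in turn had these values of the tumor effect minus the crypt effect, on the log2 scale. The difference was positive for *Adora1* (3.85), *Ctse* (1.49), *Dio1* (2.11) and *S100g* (3.96). It was negative for *Bmp8b* (−2.97), *Chil3* (−4.38), *Ret* (−2.04), *Sema7a* (−2.13), *Tgm2* (−2.22) and *Trim15* (−2.07). *Chil3*, a chitinase-like protein of myeloid cells, was at or near 0 in the WT crypts, so its fitted difference depends on the pseudocount. Tumors were whole tissue and crypts isolated epithelium, with another treatment and sequencing request, which cannot be told apart. Groups of 3 tumors were not tested for single outlying samples.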

How the results depend on the processing

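Calls in tumors depended on the tool. Against 0 by limma, DESeq2 called 11 higher and 13 lower, library weights (not converged) 1083 and 842, no filter on low values 1 lower, and fits without single tumors 0 to 1 higher. DESeq2 counts without single tumors ran from 9 to 124 higher and 7 to 81 lower. A fit with the replicate number as a block called 0 higher and 0 lower, and same-numbered tumors correlated at 0.103, −0.385 and 0.0114. Crypt calls at baseline went from 5 higher and 0 lower to 42 and 11 by DESeq2, and to 0 to 7 higher and 0 to 1 lower without single libraries (7 and 1 without T/T crypt 1). After DSS, DESeq2 called 156 and 178, and fits without single libraries 0 to 3 lower. The difference from baseline crypts gave 0 to 1 higher without single libraries (1 without T/T crypt 3 or 4). The difference from crypts after DSS went from 34 and 28 to 22 and 16 with a mean of at least 50, 7 and 8 in 1 interaction fit, 4 to 89 and 7 to 55 without single libraries. The enteroendocrine transcription factor median ran from 0.414 to 1.09 without single tumors. Medians over fits without single tumors ran from −0.250 to 0.0326 (mitosis) and 0.0333 (S phase). They turned from −0.154 to 0.0326 (mitosis) and from −0.130 to 0.0333 (S phase) without T/T tumor 2, and to 0.0358 and 0.0890 without T/T tumor 2 and WT tumor 3. Single genes that turned were *Tcf3* (−0.249 to 0.0267 without single tumors, positive without T/T tumor 2, and 0.142 without both), *Tcf4* (−0.0804 to 0.119, negative without WT tumor 3 or T/T tumor 3 at −0.0192, −0.206 with weights, −0.0844 without both), *Tcf12* (−0.0555 to 0.0871, −0.0372 without WT tumor 3, −0.192 with weights, −0.0236 without both), *Fzd5* (−0.262 to 0.0442, positive without WT tumor 3, 0.130 with weights, 0.0196 without both), *Fzd6* (−0.0227 to 0.125, negative without WT tumor 1, −0.0291 with weights), *Fzd7* (−0.291 to 0.113, positive without WT tumor 3, 0.190 without both), *Fzd10* (−0.829 to 0.188, positive without WT tumor 2) and *Dmpk* (0.0421 without both). The cause of these changes was not tested.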
